A study of Mus musculus with 2 samples.

Results

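Genes of the tight and gap junctions, 9 in number, are described here in total RNA of adult mouse liver: the claudins Cldn1, Cldn2, Cldn3, Cldn12 and Cldn14, occludin (Ocln), the scaffold protein ZO-1 (Tjp1) and the connexins Gjb1 and Gjb2. They were chosen by symbol, and all 9 were found among the 43346 mouse gene identifiers of the gene tables. The study sequenced RNA longer than 200 nucleotides from liver of C57BL/6J mice aged 8 weeks, with no treatment or genetic change given in the labels. The 2 libraries carry the numbers of biological replicates 1 and 2 and form 1 group, so the data give levels and the distance between the libraries and hold no comparison of conditions. The labels name separate biosamples but 1 donor identifier for both, and leave the sex uncollected. Whether the libraries came from separate animals could thus not be told. The spread between them may not be one between animals and may be partly technical. The depth over mouse genes was 83816487 expected counts for replicate 1 and 71068191 for replicate 2.

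Tight junctions seal neighbouring hepatocytes along the bile canaliculus and keep bile apart from blood plasma. Their strands are polymers of claudins, joined by occludin and tied to actin by the ZO scaffold proteins. Gap junctions are channels built from connexins that pass ions and small messengers between cells, and hepatocytes are known for connexin 32, the product of Gjb1, and connexin 26, the product of Gjb2. In bulk tissue, fewer cells of a type and less RNA per cell cannot be told apart.

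Liver identity was plain in both libraries. All 7 hepatocyte markers reached 1 TPM (a level scaled to transcript length and library size) in both libraries and summed to 9380 TPM in replicate 1 and 15424 TPM in replicate 2. Levels below are endogenous TPM, the deposited TPM rescaled to leave out spike-ins, and were higher in replicate 2 for most genes. Over the 7702 genes with a mean of 1 TPM and 10 counts, the median log2 ratio of deposited TPM was 0.49. The SDs of the levels below include this shift and are not the spread of each gene alone. Most of the TPM lay outside protein-coding genes, which lowers every level below. With TPM rescaled over protein-coding genes alone, Gjb1 stood at 588 and 658 TPM in replicates 1 and 2, against 71.6 and 108 endogenous TPM. Cholangiocytes, the cells of the bile ducts, also carry claudins; their markers summed to 5.35 and 5.59 TPM in replicates 1 and 2, with 1 of 10 at 1 TPM in both libraries. Of these, Spp1 stood at 4.36 and 4.48 TPM and made up most of both sums. The keratin Krt19 had 149 and 63 counts and Cldn4 had 3 and 5. Markers of other organs differed more. All 9 pancreatic acinar markers, led by Cela2a and Try4, had fewer counts in replicate 2, with summed levels of 134 and 44.0 TPM in replicates 1 and 2. The adrenal cortex list, led by Hsd3b1 and Star, summed to 0.181 and 13.8 TPM, and the skeletal muscle list to 4.71 and 0.241 TPM. The part of these tissues in the values below was not tested.

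Of the 9 junction genes, 8 reached 1 TPM in both libraries, where 31.0% of 21474 protein-coding genes did. Cldn14 was the exception, at 0.913 TPM in replicate 1. The members were chosen with earlier results of these data known. This share, and their shares of the claudins and connexins below, are thus descriptions and not tests. The deposited posterior SD of the gene count, which grows where reads are shared between genes, was 0 for all 9 in both libraries.

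Gjb1 stood above all other members. Gjb1 (ENSMUSG00000047797.10, chromosome X, 101376378 to 101385629, plus strand, mm10) had 30067 expected counts in replicate 1 and 29111 in replicate 2. Its level was 71.6 and 108 TPM, or 89.6 ± 25.5 TPM (SD, n = 2). Among 21474 protein-coding genes it ranked 242nd in replicate 1 and 216th in replicate 2. Both of its values lay above both values of every other member.

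Gjb2 was the second of the members. Gjb2 (ENSMUSG00000046352.7, chromosome 14, 57098600 to 57104702, minus strand) had 6793 and 8281 counts in replicates 1 and 2. This gave 9.83 and 18.7 TPM, or 14.2 ± 6.25 TPM (SD, n = 2), and ranks of 1379 and 1051. The connexins can form mixed channels, so their proportion was taken within each library. Gjb2 held 12.1% of the summed level of the pair in replicate 1 and 14.8% in replicate 2, which averages 13.4% ± 1.92 (SD, n = 2). Per length, Gjb1 was 7.29-fold above Gjb2 in replicate 1 and 5.77-fold in replicate 2. In the whole connexin family, Gjb1 and Gjb2 together held 98.7% and 99.1% of the TPM of 20 measured connexins, and 10 of the 20 had 0 counts in both libraries.

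Gjb1 is read from alternative first exons that join 1 coding exon, so its transcripts differ in where they start and share the same coding sequence of 849 nucleotides. The start of Gjb1-202 lies at 101376378, that of Gjb1-201 lies 895 nucleotides downstream at 101377273, and that of Gjb1-203 a further 6463 nucleotides on, at 101383736, nearest the coding exon. In rodents the connexin 32 gene is known for an upstream promoter used in liver and for a promoter close to the coding exon used in Schwann cells. The windows around the 3 starts, 250 bases before to 50 after the RefSeq start (GRCm38.p6, plus strand), are shown because the libraries weighted them so unequally. Capitals mark 4 motifs searched on both strands, none of which overlaps another in these windows. They are the TATA box as TATAAA, the CCAAT box by its name, the GC box as GGGCGG and, as a half-site of the factor HNF1, the letters GTTAAT. These RefSeq starts lie 2, 38 and 4 nucleotides from the starts of Gjb1-202, Gjb1-201 and Gjb1-203. A further RefSeq start of Gjb1, at 101382118, lies 1618 nucleotides from the start of Gjb1-203. Its window holds none of the 4 motifs and is not shown.
Gjb1-202 start, chrX:101376126-101376425: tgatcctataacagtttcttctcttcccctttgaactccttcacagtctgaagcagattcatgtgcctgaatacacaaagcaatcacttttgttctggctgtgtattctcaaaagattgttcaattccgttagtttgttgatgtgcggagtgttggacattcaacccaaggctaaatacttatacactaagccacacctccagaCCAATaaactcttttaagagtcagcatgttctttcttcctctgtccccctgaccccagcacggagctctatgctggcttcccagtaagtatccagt
Gjb1-201 start, chrX:101376985-101377284: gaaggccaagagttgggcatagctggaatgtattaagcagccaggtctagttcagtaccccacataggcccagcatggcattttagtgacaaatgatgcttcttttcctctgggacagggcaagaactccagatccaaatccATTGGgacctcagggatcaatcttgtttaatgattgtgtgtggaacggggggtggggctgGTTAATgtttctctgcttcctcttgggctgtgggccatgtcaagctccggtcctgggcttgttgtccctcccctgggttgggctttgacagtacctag
Gjb1-203 start, chrX:101383482-101383781: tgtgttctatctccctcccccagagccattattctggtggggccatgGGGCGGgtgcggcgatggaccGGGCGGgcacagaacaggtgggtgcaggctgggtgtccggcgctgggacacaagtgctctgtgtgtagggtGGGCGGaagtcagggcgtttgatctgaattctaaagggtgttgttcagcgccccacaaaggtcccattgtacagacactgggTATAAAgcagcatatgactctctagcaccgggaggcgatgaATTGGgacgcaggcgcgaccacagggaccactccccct

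Nearly all Gjb1 RNA was assigned to the upstream starts. Gjb1-201 held 57.8% of the gene's TPM in replicate 1 and 61.8% in replicate 2, and Gjb1-202 held 41.9% and 38.2%. Gjb1-203 held 0.29% and 0.06%, from 89.85 and 16.94 estimated counts with posterior SDs of 23.1 and 13.9. The estimates for the upstream pair carry posterior SDs of 339 counts in replicate 1 and 352 in replicate 2, against 17661 and 18244 counts for Gjb1-201. These transcripts have 2 exons each, of which the coding one is shared. By letters, the window of Gjb1-203 holds 1 TATA box and 3 GC boxes, neither of which is in the windows of the upstream pair. The window of Gjb1-201 holds 1 HNF1 half-site, and each of the 3 windows holds 1 CCAAT box. Of all 32851 RefSeq promoter windows, 13.6% hold the TATA box, 37.4% the CCAAT box, 35.7% the GC box and 7.10% the HNF1 half-site. A match of letters is not a site in use.

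**Figure D1:**
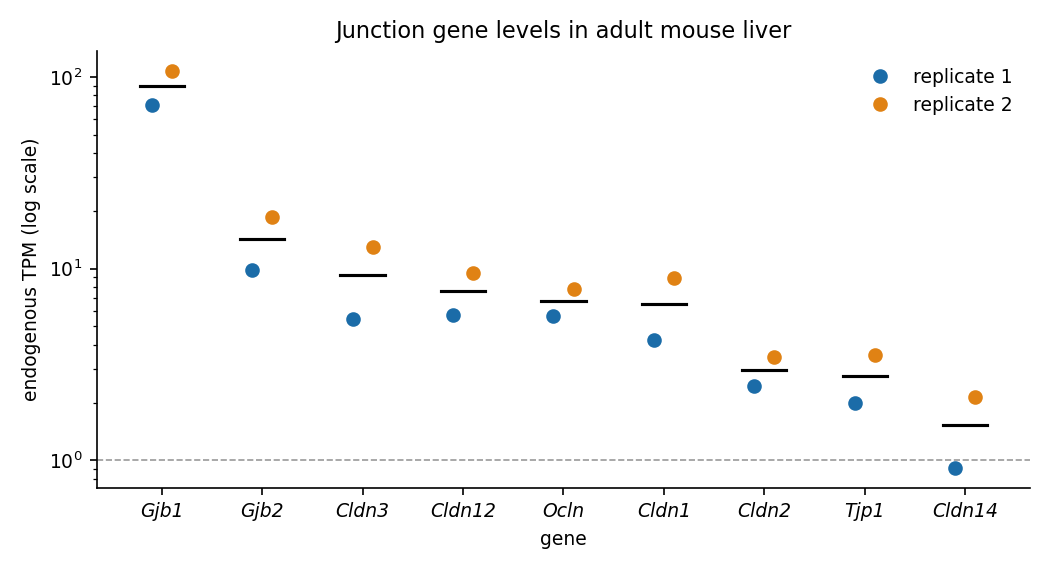
Level of each junction gene in endogenous TPM on a log axis, with replicate 1 and replicate 2 as points, their mean as a bar and 1 TPM as a dashed line. Gjb1 lies at 71.6 and 108 TPM, apart from the other 8 genes, and the low end is Cldn14 at 0.913 and 2.14 TPM.

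Of the claudins, Cldn3 had the highest mean. Cldn3, a claudin that seals the space between epithelial cells (ENSMUSG00000070473.4, chromosome 5, 134986214 to 134987472, plus strand), had 1799 counts in replicate 1 and 2768 in replicate 2. Its level was 5.45 and 13.0 TPM, or 9.23 ± 5.34 TPM (SD, n = 2). An antisense gene, Wbscr25, overlaps it by 40 nucleotides and had 0 and 1 counts. Cldn12, whose product lacks the tail motif by which most claudins bind ZO proteins (ENSMUSG00000046798.10, chromosome 5, 5489537 to 5514958, minus strand), had 6117 and 6082 counts. Its level was 5.76 and 9.48 TPM, or 7.62 ± 2.63 TPM. Cldn12 was thus the higher of the pair in replicate 1 and Cldn3 in replicate 2.

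Cldn1, a sealing claudin also used by hepatitis C virus to enter human hepatocytes (ENSMUSG00000022512.2, chromosome 16, 26356642 to 26371841, minus strand), had 4062 counts in replicate 1 and 5454 in replicate 2. Its level was 4.25 and 8.90 TPM, or 6.57 ± 3.29 TPM (SD, n = 2). Cldn2, which forms pores for cations and water (ENSMUSG00000047230.6, chromosome X, 139800828 to 139811386, plus strand), had 2150 and 1953 counts. It stood at 2.45 and 3.47 TPM, or 2.96 ± 0.725 TPM. Both values of Cldn1 lay above both values of Cldn2.

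Cldn14, known for its part in hearing and in calcium handling by the kidney (ENSMUSG00000047109.8, chromosome 16, 93919031 to 94008837, minus strand), was the lowest member. It had 321 counts in replicate 1 and 483 in replicate 2, at 0.913 and 2.14 TPM, or 1.53 ± 0.867 TPM (SD, n = 2). The deposited interval of its TPM in replicate 1 ran from 0.845 to 1.07 and so spans the detection level. Over 23 measured claudins, the 5 members held 94.5% of the summed TPM in replicate 1 and 96.5% in replicate 2. Cldn3 took 27.4% and 33.9% of that sum, Cldn12 28.9% and 24.7%, and Cldn1 21.3% and 23.2%. Cldn2 took 12.3% and 9.06%, and Cldn14 4.59% and 5.58%. Without division by length the order of the means was different, and of the expected counts Cldn12 held 38.4%, Cldn1 29.6%, Cldn3 14.2% and Cldn2 12.9%.

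**Figure D2:**
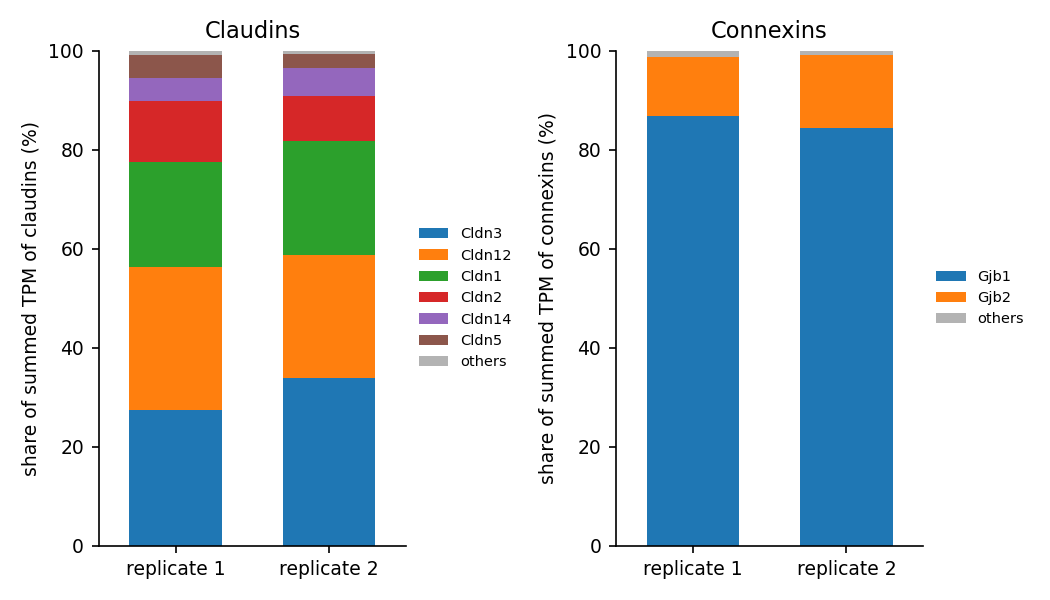
Share of the summed TPM of 23 claudins (left) and 20 connexins (right) held by each gene, in percent, with a stacked bar for each library. Cldn3, Cldn12 and Cldn1 hold most of the claudin bar in both libraries, and Gjb1 holds 86.8% and 84.4% of the connexin bar in replicates 1 and 2.

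Cldn14 also has alternative starts, and the transcripts assigned counts were those of the downstream pair. The distal start, of Cldn14-201, lies at 94008837, 79020 nucleotides upstream of the start of Cldn14-204 at 93929817, and Cldn14-205 starts 250 nucleotides further on, at 93929567. All 3 of these transcripts share a coding sequence of 717 nucleotides. Windows of the distal start and of the start with most RNA are given for comparison, read 5′ to 3′ on the minus strand, with the same motifs in capitals.
Cldn14-201 start, chr16:94008788-94009087: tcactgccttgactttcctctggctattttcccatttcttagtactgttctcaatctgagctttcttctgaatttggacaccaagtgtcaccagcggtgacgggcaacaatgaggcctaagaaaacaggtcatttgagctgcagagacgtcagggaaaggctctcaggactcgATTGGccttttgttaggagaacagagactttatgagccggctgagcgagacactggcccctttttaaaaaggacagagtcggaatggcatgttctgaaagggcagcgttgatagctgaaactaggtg
Cldn14-205 start, chr16:93929518-93929817: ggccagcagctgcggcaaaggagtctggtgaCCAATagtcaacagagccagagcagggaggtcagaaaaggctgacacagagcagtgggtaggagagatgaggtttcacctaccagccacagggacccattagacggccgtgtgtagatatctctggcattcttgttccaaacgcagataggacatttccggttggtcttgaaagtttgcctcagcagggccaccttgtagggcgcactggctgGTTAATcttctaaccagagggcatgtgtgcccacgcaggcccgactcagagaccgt

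Cldn14-205 held 67.7% of the gene's TPM in replicate 1 and 70.7% in replicate 2, and Cldn14-204 held 32.3% and 29.4%. Cldn14-201 was assigned 0 counts in both libraries, which allows a share of up to 0.935% of the gene's counts in replicate 1 and 0.621% in replicate 2; these limits cover counting error only and not the division of shared reads. The window of Cldn14-205 holds 1 CCAAT box and 1 HNF1 half-site, and that of Cldn14-201 holds 1 CCAAT box.

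Ocln, the strand protein occludin, and Tjp1, which encodes the scaffold protein ZO-1 beneath the strands, stood in the range of the claudins. Ocln (ENSMUSG00000021638.8, chromosome 13, 100496507 to 100552718, minus strand) had 4632 counts in replicate 1 and 4315 in replicate 2. Its level was 5.66 and 7.85 TPM, or 6.76 ± 1.55 TPM (SD, n = 2). Tjp1 (ENSMUSG00000030516.10, chromosome 7, 65296165 to 65527781, minus strand) had 3655 and 3517 counts. Its level was 1.99 and 3.55 TPM, or 2.77 ± 1.10 TPM. Both values of Ocln lay above both values of Tjp1.

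Ocln RNA was split among transcripts with different coding sequences. Ocln-201 held 40.8% of the gene's TPM in replicate 1 and 49.2% in replicate 2, and Ocln-202, with the same coding sequence of 1563 nucleotides, held 23.5% and 25.3%. Ocln-203 held 35.7% and 22.9%, from 1107 and 632 counts with posterior SDs of 49.6 and 49.7. It lacks exons 2 and 3 of Ocln-201, at 100541068 to 100541184 and 100539261 to 100539933 (117 and 673 nucleotides), and its annotated coding sequence is 816 nucleotides. In all, 64.3% of the TPM of Ocln in replicate 1 and 77.1% in replicate 2 came from transcripts with the longest coding sequence.

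Tjp1 is known for an alternative exon that encodes the alpha domain of ZO-1, included in most epithelia and skipped in endothelial cells. This exon, number 20 of Tjp1-202, lies at 65314093 to 65314332 and is 240 nucleotides long, all coding. It is shown because Tjp1-202 holds it and Tjp1-201 does not, and is taken from the GENCODE M21 transcript (GRCm38), read on the minus strand.
Tjp1 alpha exon, chr7:65314093-65314332: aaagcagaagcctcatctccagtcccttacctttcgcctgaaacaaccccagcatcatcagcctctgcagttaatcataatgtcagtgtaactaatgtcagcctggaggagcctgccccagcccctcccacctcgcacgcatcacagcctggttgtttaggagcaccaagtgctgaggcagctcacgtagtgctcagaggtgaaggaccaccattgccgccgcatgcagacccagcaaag

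Tjp1-202, which holds that exon, had 2896 counts in replicate 1 and 3165 in replicate 2. Tjp1-201, which skips it, had 726 and 253 counts, with posterior SDs of 71.4 and 51.0. Of the TPM of the pair, Tjp1-202 thus held 77.5% and 91.6%. The pair also differs at both transcript ends and in 1 boundary of another coding exon, and reads of the alpha exon alone were not analysed here. Sinusoidal endothelial markers summed to 38.8 TPM in replicate 1 and 52.2 TPM in replicate 2, and their part in the skipping transcript was not tested. Tjp1-203, a short noncoding transcript of 699 nucleotides, held 9.90% and 27.4% of the gene's TPM but 0.83% and 2.77% of its counts. The level of Tjp1 above and its ratio by deposited TPM include this transcript.

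The remaining members differed in their number of transcripts. Cldn1, Cldn3 and Gjb2 have 1 transcript each in the gene models. Cldn2-201 held 98.1% and 97.9% of Cldn2 in replicates 1 and 2. Cldn12 had 7 transcripts, the most of any member, and 6 of them were assigned counts. Of these, 4 share a coding sequence of 732 nucleotides and took 100% of its TPM in replicate 1 and 94.3% in replicate 2; among them Cldn12-201 held 63.6% and 49.8% and Cldn12-203 held 20.6% and 33.6%. The noncoding Cldn12-205 and Cldn12-206 were at 0 in replicate 1 and held 3.33% and 2.35% in replicate 2, from 3 and 7 counts. In all 9 genes the most abundant transcript was the same in both libraries.

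**Figure D3:**
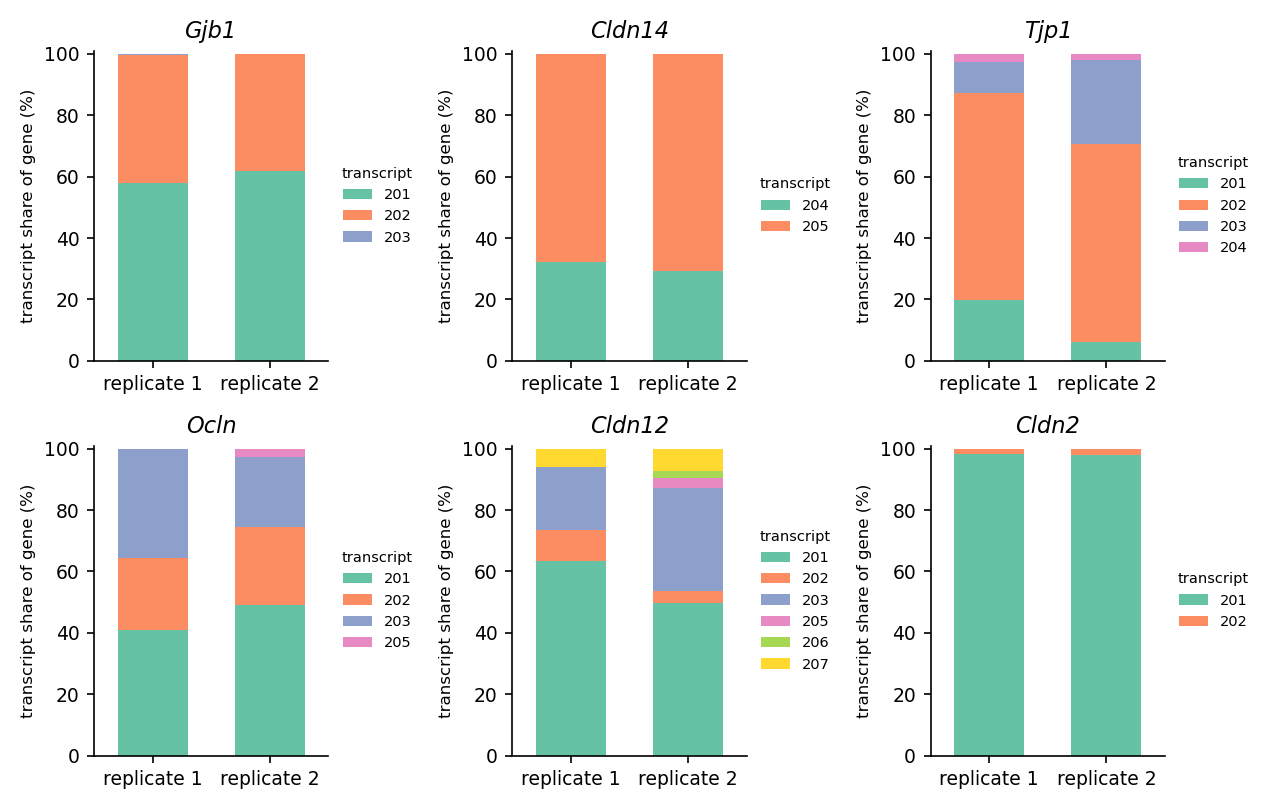
Deposited share of each transcript in the TPM of its gene, in percent, as stacked bars for replicate 1 and replicate 2; transcripts at 0 in both are not drawn. Gjb1-203 is hardly visible at 0.29% and 0.06%, and Ocln-203 covers 35.7% and 22.9% of its bars.

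In order of mean level the members ran Gjb1, Gjb2, Cldn3, Cldn12, Ocln, Cldn1, Cldn2, Tjp1 and Cldn14. Of the 8 steps between neighbours, Gjb1 to Gjb2 and Cldn1 to Cldn2 were larger than the spread, with both values of the higher gene above both of the lower. The values of the neighbours overlapped at the other steps. With TPM rescaled over protein-coding genes, Gjb2 to Cldn3 and Tjp1 to Cldn14 did not overlap either, and 29 of all 36 pairs of members did not overlap, against 27 by endogenous TPM. Of the 36 pairs, 32 had the same order in both libraries. The exceptions were Cldn3 against Cldn12, Cldn3 against Ocln, Cldn1 against Ocln and Cldn2 against Tjp1. In replicate 2, Tjp1 stood above Cldn2, at 3.53 against 3.46 deposited TPM, only with the noncoding Tjp1-203 counted. That transcript held 0.97 TPM there.

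Between the libraries, counts scaled by TMM (a scaling that sets the bulk of genes equal) placed 5 members close together and the other 4 higher in replicate 2. The log2 ratio of replicate 2 over replicate 1, with 0.5 CPM added, was -0.05 for Cldn2, -0.01 for Ocln, 0.03 for Tjp1, 0.04 for Gjb1 and 0.08 for Cldn12. Cldn3 had the highest ratio at 0.70, followed by Cldn14 at 0.62, Cldn1 at 0.51 and Gjb2 at 0.37. Over the 7702 genes with a mean of 1 TPM and 10 counts, the central 90% of ratios ran from -0.58 to 0.51, so Cldn3 and Cldn14 lay above that range and Cldn1 just inside it. All 9 members passed that filter, and 0 of 9 were over 2-fold apart, where 2.36% of the 7702 genes were. By direction, 0.792% of the 7702 genes were over 2-fold higher in replicate 2 and 1.57% over 2-fold higher in replicate 1. The median ratio of the members was 0.08 beside -0.04 for all genes past the filter. With 1 library on each side of the ratio, no test was made.

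The size of these ratios depended on the scaling. By deposited TPM, the median of all genes was 0.49 and 3 members passed 2-fold, Cldn3 at 1.24, Cldn14 at 1.14 and Cldn1 at 1.05. Of the 7702 genes, 8.02% passed 2-fold under that scaling. Scaled by the spike-in total, the median of all genes was 0.27 and Cldn3 alone of the members passed, at 1.01, where 3.30% of the 7702 genes did. Cldn2 and Ocln, below 0 under TMM, stood at 0.27 and 0.30 under spike-in scaling and at 0.49 and 0.46 by deposited TPM. Of the 9 members, 8 lay above the median of all genes under TMM, 8 under spike-in scaling and 7 by deposited TPM. Cldn3, Cldn14, Cldn1 and Gjb2 were the highest members in each of these scalings.

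**Figure D4:**
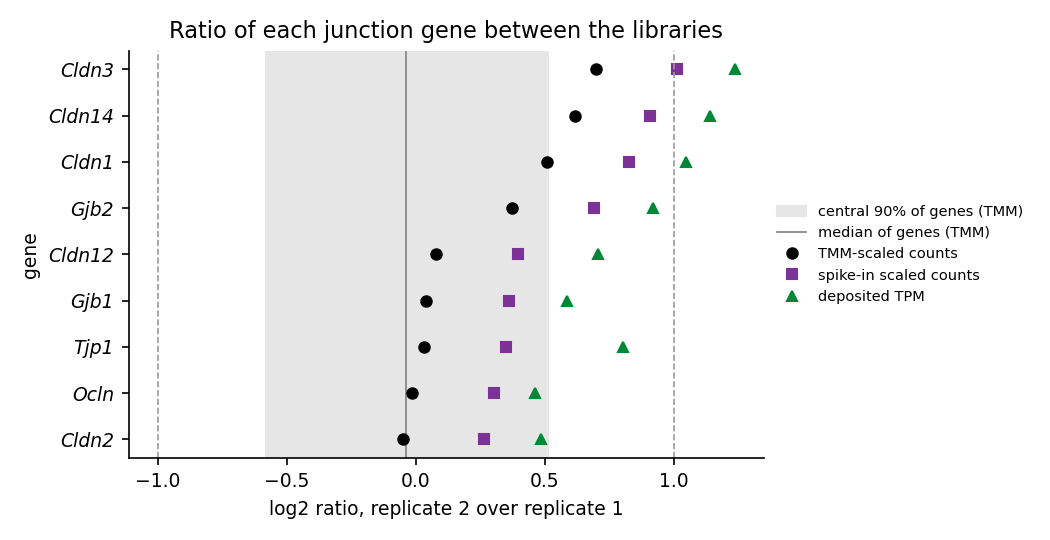
Log2 ratio of replicate 2 over replicate 1 for each junction gene under 3 scalings; the grey band and line are the central 90% and the median of all genes under TMM, and dashed lines mark 2-fold. All points move to the right from TMM to spike-in scaling to deposited TPM, as the median of all genes does, from -0.04 to 0.27 and 0.49, and Cldn3, Cldn14, Cldn1 and Gjb2 stay at the top.

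Base composition and zonal markers moved between the libraries too. Genes in the highest of 10 bins of GC content had a median ratio of 0.15, and those in the lowest -0.23. The transcripts of Cldn3 and Cldn14 are in the highest bin, at 62.7% and 59.3% GC, while that of Cldn1 is in the second lowest, at 42.3%. With the median of its bin taken off, Cldn1 stood at 0.70, Cldn3 at 0.54, Cldn14 at 0.46 and Gjb2 at 0.43, and Gjb1 at -0.08. Hepatocytes differ along the lobule, and in rodent liver connexin 26 is known as a periportal protein. In these libraries 6 of 10 periportal markers were higher in replicate 2, with a median ratio of 0.36; among them, the urea cycle enzyme Ass1 stood at 0.42. All 7 pericentral markers past the filter were lower, with a median of -0.63, among them Cyp2e1 at -0.49 and Rgn at -0.84. The periportal list summed to 1516 and 2391 TPM in replicates 1 and 2, and the pericentral list to 1067 and 1014 TPM. Those sums carry the shift of TPM between the libraries. Under TMM, the log2 ratio of summed counts was 0.06 for the periportal list and -0.63 for the pericentral list. The cholangiocyte list had a log2 ratio of -0.47 over its summed counts, lower in replicate 2, while Cldn3, Cldn14 and Cldn1 were higher there. Most of the counts of that list came from Spp1, at 1647 and 1072 in replicates 1 and 2. The part of the zonal markers and of base composition in the ratios of the members was not tested.

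Other genes of the junctions were measured alongside, 89 in all. Of these, 27 (30.3%) reached 1 TPM in both libraries, close to the 31.0% of all protein-coding genes. Under TMM, 0 of the 33 that passed the filter were over 2-fold apart, where 2.36% of all genes past it were. By deposited TPM 3 of the 33 were, against 8.02% of all genes: Cdh1 at 1.19, the endothelial adhesion protein Esam at 1.17 and the desmosome and adherens junction protein Jup at 1.01. Below the filter, at means of 0.904 and 0.974 TPM, Jam2 and the adherens junction gene Nectin1 stood at -1.09 and 1.20 under TMM. Without the filter, 427 of 20478 genes were over 2-fold apart under TMM. Esam, Jup, Jam2 and Nectin1 were named after their values were seen. No other claudin reached 1 TPM in both. Of 20 genes, 18 claudins and the relatives Tmem114 and Tmem235, the highest was Cldn5, the claudin of endothelium, at 0.903 and 1.10 TPM, and Cldn15 and Cldn7 followed at 0.0552 ± 0.00712 and 0.0351 ± 0.00708 TPM (SD, n = 2). Cldn4 and Cldn7, claudins of bile duct and other epithelia, had 3 and 12 counts in replicate 1 and 5 and 8 in replicate 2. Of the 20 genes, 9 had 0 counts in both libraries, which allows up to 3 counts a library.

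Among the other membrane proteins of tight junctions, 6 of 14 reached 1 TPM in both libraries. Lsr, which builds the corners where 3 cells meet, led at 10.5 ± 3.38 TPM (SD, n = 2), a mean above that of all members but Gjb1 and Gjb2. In replicate 2, Lsr at 12.9 TPM was below Cldn3 at 13.01 TPM. The adhesion proteins Cxadr and F11r stood at 7.12 ± 2.54 and 6.39 ± 3.02 TPM. Of 23 scaffold and polarity proteins, 11 reached the level, led by the polarity protein Pard3 at 6.71 ± 2.18 TPM, Afdn at 5.33 ± 1.15 TPM and Mpdz at 4.27 ± 1.19 TPM. Tjp3, a relative of Tjp1 named after its values were seen, stood at 0.954 ± 0.270 TPM.

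None of the 21 other connexins and pannexins reached 1 TPM in both libraries. Gja1, the connexin 43 of many nonparenchymal cells, stood at 0.562 and 0.583 TPM, and Gja4, an endothelial connexin, at 0.211 and 0.231 TPM. The channel protein Panx1 stood at 0.136 ± 0.0498 TPM (SD, n = 2). The adherens junctions, which lie beside the tight junctions, had 10 of 11 genes at 1 TPM in both, led by beta-catenin (Ctnnb1) at 30.1 ± 6.22 TPM (SD, n = 2). N-cadherin (Cdh2) and alpha-catenin (Ctnna1) stood at 9.31 ± 2.50 and 9.10 ± 1.53 TPM. E-cadherin (Cdh1), a periportal marker also named after its values were seen, had 1.91 and 4.49 TPM and a log2 ratio of 0.67. The median ratios of the lists that had several genes past the filter were 0.20 for the membrane proteins, 0.06 for the scaffolds and 0.03 for the adherens junctions.

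**Figure D5:**
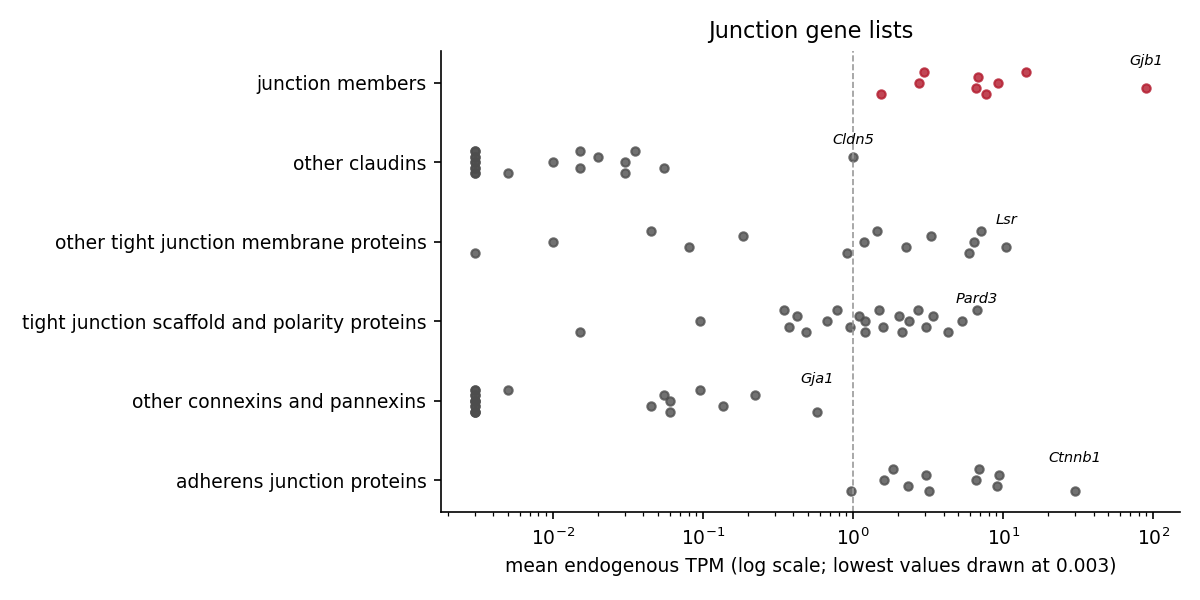
Mean endogenous TPM of each gene of the junction lists on a log axis, with 1 point a gene, the highest gene of each list named and 1 TPM as a dashed line; values under 0.003 are drawn at 0.003. The 9 members lie to the right of the line, and in the lists of other claudins and of other connexins the highest genes, Cldn5 and Gja1, lie at or left of it.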

How the data were processed

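Total RNA longer than 200 nucleotides from mouse liver was quantified by the authors in 2 libraries, each separately, per the deposited notes against gene models of GENCODE M4 on mm10; which aligner and quantifier were used is not given in the sources used here. Expected counts, as deposited, are estimated fragments per gene or transcript and are not normalised. Deposited TPM and FPKM values are scaled to length and library size; FPKM served as an alternative detection level. The deposited transcript share is a percent of the gene's TPM. The deposited posterior SD, a score of how uncertain shared reads leave a count, and the deposited signal columns that bound each TPM were printed as they stand.

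Symbols and coordinates came from GENCODE M21 of the same assembly, which matched 42462 of 43346 identifiers; all 30 transcripts of the members had the same length in both releases. RefSeq promoter windows were found for all 9 members. Expected counts were rounded for TMM and the common dispersion in edgeR 4.0.16 and for the size factors of DESeq2 1.42.0 (R 4.3.3). Between the libraries, edgeR gave a biological coefficient of variation of 0.237 across 14703 genes. The pseudocount of 0.5 CPM equals 39.8 counts in replicate 1 and 37.4 in replicate 2, so ratios understate the change of low genes. The TMM ratios and the coefficient of variation were also computed on simulated counts, and the outcome is not given here. Those counts held no GC trend and no difference in RNA of other tissues, and the DESeq2 size factors were not assessed on them. Python 3.11.15 with numpy 2.4.6 and pandas 2.3.3 gave the other values.

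The members and all lists were chosen with earlier results of these data known. The rule for names took all members, the 3 highest genes of each junction list, any of them over 2-fold apart past the filter, and the 2 highest markers of a list given beside a result; Krt19 and Cldn4 were added for their counts after these were seen. Some genes that the rule names are not reported here. The lists of Kupffer, stellate, large vessel endothelial, mesothelial and intestinal markers summed to 46.6, 29.0, 3.09, 0.923 and 12.6 TPM in replicate 1, and to 50.7, 43.0, 5.37, 1.05 and 7.22 TPM in replicate 2.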

Additional observations from a re-analysis of the deposited data

How the results depend on the processing

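With 1 group there was no test between groups, and leaving out a library gives the value of the other. No paired analysis was possible because the libraries form a single group. The number of members detected was 8 or 9 with a library left out, and 9 at 0.1 TPM, at 10 counts, at 1 FPKM and with TPM set to protein-coding genes alone. That rescaling raised the summed level of the members to 977 ± 130 TPM (SD, n = 2), against 141 ± 47.2 TPM (108 to 175 with a library left out). The median ratio of the members, 0.08 under TMM, was 0.40 under spike-in scaling, 0.80 by deposited TPM and 0.21 with the median of the GC bin taken off, an alternative chosen after seeing the data. Members over 2-fold apart numbered 0 under TMM, under DESeq2 size factors and with a pseudocount of 0.1 CPM, 1 under spike-in scaling and 3 by deposited TPM; over all 7702 genes the counts were 182, 182, 203, 254 and 618 in the same order. The coefficient of variation was 0.295 without a filter on low counts. By expected counts the claudin members held 97.6% of the claudin sum (95.5% by TPM, 94.5% to 96.5% with a library left out), and Gjb2 20.3% of the connexin pair (13.4% by TPM, 12.1% to 14.8% with a library left out). Other junction genes detected numbered 46 at 0.1 TPM and 56 at 10 counts, against 27. With 2 libraries, the SDs are imprecise, and transcript shares rest on the division of shared reads.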
